A study of Mus musculus with 4 samples.

Results

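*Cyb5r2*, *Fam129a*, *Ddr2*, *Arap3*, *Cass4*, *Gm32312*, *AC142100.1* and *Gm38403* are 8 of the 32286 features counted in single-nucleus RNA-seq of cortex and hippocampus. By their labels, the mice had the SEL1L gene floxed, with or without a neuronal Cre. The 8 genes were chosen by their measured counts of UMIs (unique molecular identifiers, each standing for 1 captured RNA molecule). Their UMIs were near absent from neurons of the libraries labelled Sel1L flox/flox and present in neurons of those labelled Sel1L Syn-Cre. Their difference between the groups in neurons was therefore fixed by the choice and is given below as a description, with no test. The files hold 4 libraries, each from 1 mouse on a C57BL/6J background aged 5 weeks. Nuclei from 2 Sel1L flox/flox mice, whose Sel1L alleles carry loxP sites, were set against nuclei from 2 Sel1L Syn-Cre littermates, which carry the same floxed alleles and a Cre recombinase driven by the Synapsin I promoter, a promoter active in neurons. Nuclei were sorted by flow cytometry and captured with the 10x Genomics 3′ v3 chemistry. In each pair of values below, replicate 1 comes before replicate 2, and flox/flox and Syn-Cre stand for the libraries labelled so. With 2 libraries per group, many genes with no difference also fail to overlap between the groups. The share of all genes that do so was not counted, so a lack of overlap below is description only.

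SEL1L and the ubiquitin ligase HRD1 form the core of the most conserved branch of endoplasmic reticulum (ER)-associated degradation, which draws misfolded proteins out of the ER for destruction by the proteasome. When misfolded proteins build up, the unfolded protein response raises ER chaperones and degradation factors, and its PERK arm phosphorylates eIF2α, which favours translation of the transcription factor ATF4. ATF4 and its partners, in the integrated stress response, raise genes of amino acid transport, amino acid synthesis and tRNA charging.

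The 8 genes have unlike roles. *Cyb5r2* encodes an NADH-cytochrome b5 reductase and *Fam129a* encodes Niban, a protein known to rise under ER stress. *Ddr2* encodes a receptor tyrosine kinase that binds fibrillar collagen. *Arap3* encodes a GTPase-activating protein, and *Cass4* a scaffold of the Cas family at focal adhesions. *Gm32312*, *AC142100.1* and *Gm38403* are noncoding RNAs with no described role.

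Promoters of 6 members were matched in RefSeq (GRCm38.p6), each with 250 bases before and 50 after the start. Those of *Cyb5r2*, *Fam129a* and *Cass4* are printed, 5′ to 3′ along the gene's strand, because they hold letters of a stress-response motif, shown in capitals. In *Cyb5r2* (chr7:107757983-107758282, minus strand) the capitals read TGATGNAA, the core of the C/EBP-ATF site bound by ATF4, on the opposite strand, beginning 12 bases past the start. In *Fam129a* (chr1:151571123-151571422, plus strand) and *Cass4* (chr2:172393394-172393693, plus strand) they mark CCACG, part of the ER stress element, on the same strand 162 bases before the start (position -162) and on the opposite strand at position -236, respectively.
Cyb5r2: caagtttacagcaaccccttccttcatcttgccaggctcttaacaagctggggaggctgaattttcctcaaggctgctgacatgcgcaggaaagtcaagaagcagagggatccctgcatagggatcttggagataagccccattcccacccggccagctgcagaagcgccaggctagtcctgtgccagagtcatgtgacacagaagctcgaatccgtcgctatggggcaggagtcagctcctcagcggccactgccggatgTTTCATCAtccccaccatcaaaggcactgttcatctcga
Fam129a: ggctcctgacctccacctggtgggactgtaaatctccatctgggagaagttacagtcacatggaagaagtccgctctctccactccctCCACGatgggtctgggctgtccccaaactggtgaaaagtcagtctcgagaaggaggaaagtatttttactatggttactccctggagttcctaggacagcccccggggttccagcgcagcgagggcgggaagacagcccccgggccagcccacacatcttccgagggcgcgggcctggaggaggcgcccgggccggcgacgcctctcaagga
Cass4: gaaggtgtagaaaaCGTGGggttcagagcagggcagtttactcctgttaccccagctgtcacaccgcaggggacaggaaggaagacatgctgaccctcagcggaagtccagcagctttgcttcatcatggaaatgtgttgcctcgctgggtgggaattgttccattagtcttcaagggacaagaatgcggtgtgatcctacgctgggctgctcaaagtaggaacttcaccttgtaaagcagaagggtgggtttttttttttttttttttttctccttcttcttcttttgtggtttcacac
On either strand, TGATGNAA occurred in 3.97% of 32851 RefSeq promoters of the same length and CCACG in 32.8%. TGACGTGG, the site of XBP1 and ATF6, and TGACGTCA, the site of CREB proteins, occurred in 0.676% and 1.79% and were in none of the 6 windows. The RefSeq windows of *Cass4* and *Ddr2* do not hold the GENCODE start of these genes, so another start was not searched. For *Fam129a* the GENCODE start (chr1:151571186) lies in the window ahead of the CCACG. By that annotation the CCACG is inside the gene, past its start. A match is only a match of letters.

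On GRCm38 (GENCODE vM21), *Cyb5r2* lies at chr7:107748455-107758032 (minus strand), *Fam129a* at chr1:151571186-151721939 (plus), *Ddr2* at chr1:169972307-170110762 (minus), *Arap3* at chr18:37972628-37998969 (minus) and *Cass4* at chr2:172393794-172433757 (plus). *Gm32312*, annotated as antisense, lies at chr16:27317944-27326641 (minus) inside the body of *Ostn*. *AC142100.1*, a processed transcript, lies at chr18:83011903-83078855 (plus). It was matched by its gene identifier and is named *AC142100.3* in that annotation. The lincRNA *Gm38403* lies at chr10:118920381-118927143 (minus). *Cyb5r2* overlaps *Ppfibp2*, *Ddr2* overlaps *3110045C21Rik*, *Cass4* overlaps *Gm14455*, and *AC142100.1* overlaps *Gm50437* and *1700095A13Rik*. The strand and intron settings of the counting are not given in the sources used here, so UMIs of overlapping genes cannot be told apart with certainty.

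After filters, 33323 nuclei remained (11116 and 7864 flox/flox, 7538 and 6805 Syn-Cre), of which 23112 were neuron-like, and 18747 of these fell in clusters with a subtype name. The median nucleus held between 7244.5 and 8397 UMIs in the 4 libraries. The 14 neuron subtypes and 4 other classes with at least 20 nuclei in every library were summed per library and tested. Names were rebuilt here from marker genes, so each class means nuclei like that type. A cluster of 2135 nuclei led by Siglech, *Csf3r* and *Itgam*, with 5 of 6 microglial markers detected, was left unnamed because its nuclei were shallow, and is called the Siglech-led cluster. Of the kept nuclei, 102 barcodes occurred in more than 1 library. The Cre transcript had 236 and 221 UMIs in the Syn-Cre libraries, but also 409 in the library labelled flox/flox replicate 1 and 0 in flox/flox replicate 2. Per 1e6 UMIs this was 3.52 and 3.34 in Syn-Cre and 4.05 in flox/flox replicate 1. Whether that mouse lacked Cre is thus in doubt. Its label was kept, and its genotype was not tested. The levels of *Sel1l* RNA itself were 97.1 and 90.04 CPM (UMI counts scaled to 1e6 UMIs) in flox/flox and 155 and 128 CPM in Syn-Cre, so 3′ counts did not show the deletion. Replicate 1 of each group was from a male and replicate 2 from a female by *Xist* and *Ddx3y*, so a sex difference would fall within the groups. Each group has only 2 mice, so each gene's own spread between mice is poorly known. The edgeR p-values use a spread pooled over both groups and drawn toward that of other genes.

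Summed over all neuron-like nuclei, *Gm32312* and *Gm38403* were closest to absent from flox/flox. *Gm32312* had 1 and 0 UMIs in flox/flox and 19 and 14 in Syn-Cre, and *Gm38403* had 4 and 1 against 78 and 44. *Cyb5r2* had 16 and 16 UMIs against 306 and 87, and *Cass4* 24 and 17 against 109 and 55. For these 4 genes every Syn-Cre library was above both flox/flox libraries, and for *Cyb5r2*, *Cass4* and *Gm38403* Syn-Cre replicate 1 was well above replicate 2.

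The other members were plainly detected in flox/flox neurons. *Fam129a* had 147 and 120 UMIs in flox/flox and 678 and 416 in Syn-Cre, and *Ddr2* had 259 and 114 against 690 and 398. *Arap3* had 79 and 51 against 154 and 128, and *AC142100.1* had 138 and 211 against 254 and 296. Over neuron-like nuclei, *AC142100.1* stood at 1.57 and 3.44 CPM in flox/flox and 4.23 and 4.80 CPM in Syn-Cre. The description as near absent from flox/flox neurons thus held for these 4 only in some subtypes.

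**Figure D1:**
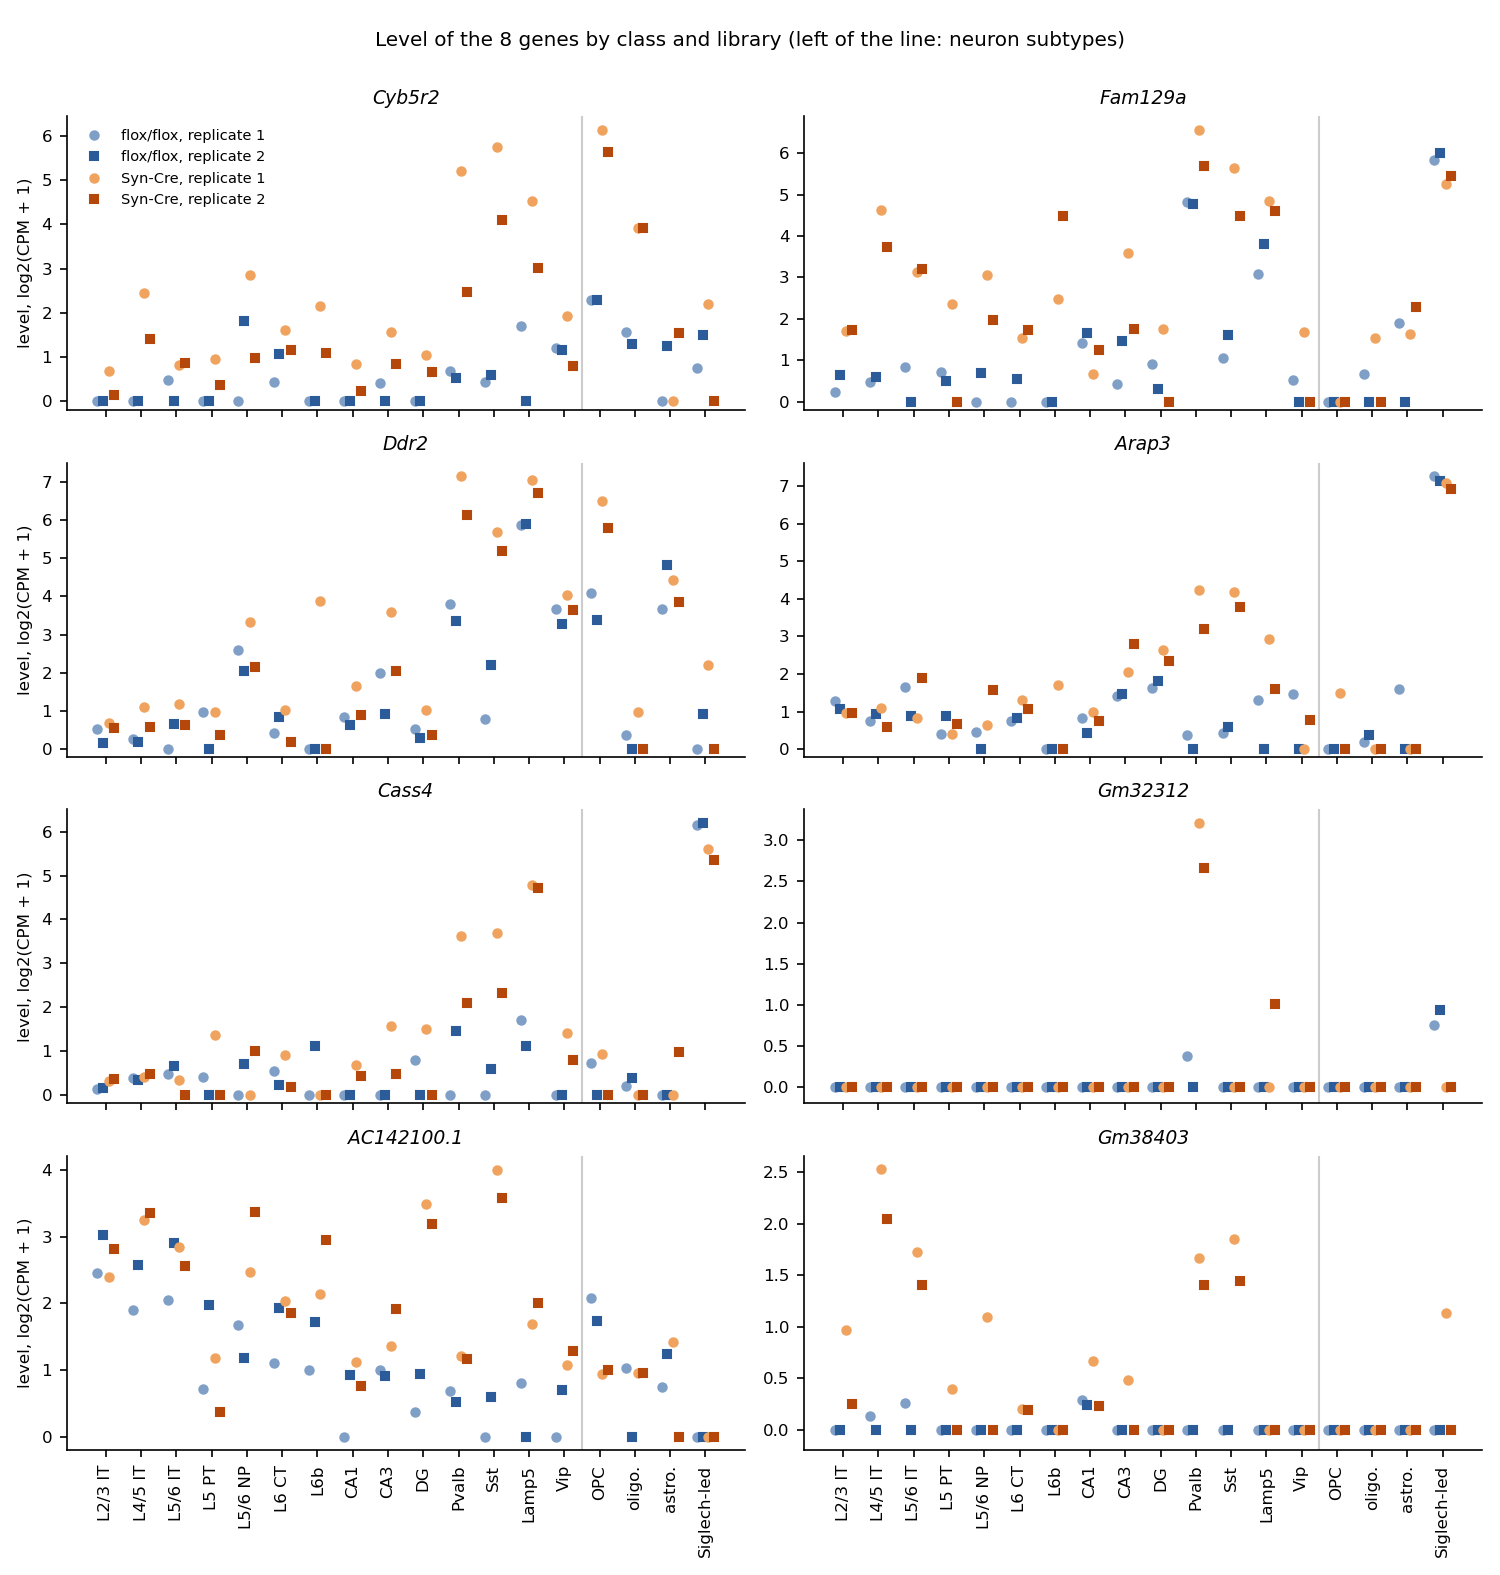
Level of each of the 8 genes, as log2(CPM + 1), in 14 neuron subtypes (left of the grey line) and 4 other classes, with 1 point per library (blue, flox/flox; orange and brown, Syn-Cre; circles, replicate 1; squares, replicate 2). In Sst-like and Pvalb-like neurons both Syn-Cre libraries are above both flox/flox libraries for Cyb5r2, Fam129a, Ddr2, Arap3 and Cass4, Gm32312 is above 1 CPM in every Syn-Cre library only in Pvalb-like neurons, and Arap3, Cass4 and Fam129a are high in all 4 libraries in the Siglech-led cluster.

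Somatostatin (Sst) interneurons, inhibitory cells that target dendrites, held few UMIs of any member in flox/flox. *Cyb5r2* had 1 and 1 UMIs in flox/flox and 102 and 28 in Syn-Cre Sst-like nuclei (0.36 and 0.51 against 53.0 and 16.1 CPM). Pooling the 2 libraries of a group, this was an 89.8-fold ratio with a 95% exact counting interval of 24.4 to 749. Both Syn-Cre libraries were far above both flox/flox libraries, and replicate 1 was above replicate 2. Such intervals cover counting error only, not the spread between mice.

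*Fam129a* in Sst-like nuclei had 3 and 4 UMIs in flox/flox and 94 and 37 in Syn-Cre, a log2 fold change of 4.53 ± 0.51 (n = 2 per group). Each ± value is the log2 fold change divided by the square root of the edgeR F statistic, not a separately fitted standard error. DESeq2 gave larger errors for *Cyb5r2* (0.617 against 0.366) and *Ddr2* (0.473 against 0.303) in OPC (oligodendrocyte precursor cell)-like nuclei. For members in neurons the ± values are no test, since the choice fixed the contrast. *Ddr2* had 2 and 7 against 97 and 62, a log2 fold change of 4.46 ± 0.42. For both, the Syn-Cre libraries stood apart from the flox/flox libraries. *Arap3* had 1 and 1 UMIs against 33 and 22 (ratio 38.0, interval 10.0 to 322) and *Cass4* had 0 and 1 against 23 and 7 (ratio 41.4, interval 6.89 to 1691).

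Of the noncoding members, *AC142100.1* had 0 and 1 UMIs in flox/flox and 29 and 19 in Syn-Cre Sst-like nuclei (ratio 66.3, interval 11.3 to 2673). *Gm38403* had 0 and 0 against 5 and 3, or 3.68-fold higher when flox/flox is set at 3 UMIs over the group. Such a value leaves out the counting error of the Syn-Cre UMIs, so it is not a lower bound. *Gm32312* had none in any of the 4 libraries. Sst-like nuclei thus held 7 of the 8 members in both Syn-Cre libraries.

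Parvalbumin (Pvalb) interneurons, the fast-spiking inhibitory cells, held the most Syn-Cre UMIs of *Fam129a*, *Ddr2*, *Arap3* and *Gm32312* among the neuron subtypes, but flox/flox Pvalb-like nuclei were not empty. *Ddr2* had 43 and 21 UMIs in flox/flox and 323 and 167 in Syn-Cre, a log2 fold change of 3.20 ± 0.32. *Fam129a* had 91 and 60 against 216 and 124, a log2 fold change of 1.42 ± 0.25. Both genes were higher in each Syn-Cre library, as the choice favoured, yet in flox/flox *Fam129a* was already present in 18.5% and 18.1% of Pvalb-like nuclei.

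*Cyb5r2* in Pvalb-like nuclei had 2 and 1 UMIs in flox/flox and 82 and 11 in Syn-Cre (ratio 38.7, interval 12.8 to 191). The Syn-Cre replicates were far apart, at 35.7 and 4.52 CPM. *Arap3* had 1 and 0 UMIs against 41 and 20 (ratio 76.1, interval 13.2 to 3055), and *Cass4* had 0 and 4 against 26 and 8. For *Arap3* both Syn-Cre libraries were well clear of flox/flox, while for *Cass4* the lower Syn-Cre library (3.29 CPM) was near the higher flox/flox library (1.75 CPM). *AC142100.1*, so clear in Sst-like nuclei, had only 2 and 1 UMIs against 3 and 3 in Pvalb-like nuclei, and *Gm38403* had 0 and 0 against 5 and 4 (3.74-fold higher with flox/flox set at 3 UMIs).

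*Gm32312* was found almost wholly in Pvalb-like nuclei. Its UMIs numbered 1 and 0 in flox/flox and 19 and 13 in Syn-Cre Pvalb-like nuclei (ratio 39.9, interval 6.67 to 1626). These made up 97.0% of its 33 UMIs in Syn-Cre neurons, while Pvalb-like nuclei were 3.91% of Syn-Cre neurons. The only other neuronal UMI was in a Lamp5-like nucleus.

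In Lamp5 interneurons, *Cass4* had 3 and 1 UMIs in flox/flox and 24 and 25 in Syn-Cre, a log2 fold change of 3.74 ± 0.53, and these held the highest share of its Syn-Cre neuronal UMIs (29.9%). *Ddr2* was abundant in both groups, with 77 and 50 UMIs against 119 and 103 (log2 fold change 1.02 ± 0.20), and so was *Fam129a*, with 10 and 11 against 25 and 23 (1.38 ± 0.40). *Cyb5r2* had 3 and 0 against 20 and 7 (ratio 11.3, interval 3.49 to 58.4). Each was higher in both Syn-Cre libraries than in both flox/flox libraries, which the choice of the genes favoured. *Ddr2* in Lamp5-like nuclei stood at 57.4 and 58.8 CPM in flox/flox and at 132 and 104 CPM in Syn-Cre, so it was well present in both.

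In Vip interneurons the libraries of the 2 groups overlapped for the members named here. *Ddr2* had 27 and 14 UMIs in flox/flox and 28 and 16 in Syn-Cre Vip-like nuclei, a log2 fold change of 0.39 ± 0.35, with overlapping groups. *Cyb5r2* (3 and 2 against 5 and 1) and *Fam129a* (1 and 0 against 4 and 0) also overlapped.

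Among excitatory neurons, layer 4/5 intratelencephalic (L4/5 IT) cells held *Cyb5r2*, *Fam129a* and *Gm38403* in both Syn-Cre libraries. *Cyb5r2* had 0 and 0 UMIs in flox/flox and 27 and 13 in Syn-Cre, or 17.7-fold higher with flox/flox set at 3 UMIs. *Fam129a* had 4 and 4 UMIs against 145 and 98, a log2 fold change of 5.28 ± 0.47. *Gm38403* had 1 and 0 against 29 and 25 (ratio 71.6, interval 12.3 to 2881), which was 44.3% of its Syn-Cre neuronal UMIs. These 3 genes were at or near 0 in both flox/flox libraries and clear of it in both Syn-Cre libraries.

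*AC142100.1* did not follow that pattern in the intratelencephalic layers. In L4/5 IT-like nuclei it had 28 and 38 UMIs in flox/flox and 52 and 74 in Syn-Cre (log2 fold change 1.25 ± 0.31). In L2/3 IT-like nuclei it had 50 and 64 against 36 and 65 (-0.14 ± 0.31), and in L5/6 IT-like nuclei 16 and 23 against 24 and 18 (0.26 ± 0.43). The groups overlapped in L2/3 and L5/6 IT-like nuclei, so its rule-given pattern rested on other subtypes. In dentate gyrus (DG) granule cells it had 2 and 4 UMIs in flox/flox and 39 and 28 in Syn-Cre, a log2 fold change of 4.01 ± 0.51, with the groups well apart. In L5/6 NP-like nuclei it had 6 and 2 against 8 and 19 (ratio 4.01, interval 1.77 to 10.2).

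Smaller gaps were seen elsewhere. *Fam129a* had 4 and 0 UMIs in flox/flox and 30 and 30 in Syn-Cre in L5/6 IT-like nuclei (log2 fold change 4.03 ± 0.63), 2 and 5 against 19 and 25 in L2/3 IT-like nuclei (2.66 ± 0.55) and 0 and 3 against 13 and 17 in L6 CT-like nuclei (3.30 ± 0.81). In L2/3, L4/5 and L5/6 IT-like nuclei both Syn-Cre libraries were above both flox/flox libraries for *Fam129a*. In CA1-like nuclei it went the other way, with 15 and 12 UMIs in flox/flox and 3 and 8 in Syn-Cre (ratio 0.568, interval 0.254 to 1.18).

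*Arap3* in DG-like nuclei had 14 and 11 UMIs against 20 and 14 (log2 fold change 1.03 ± 0.42), and in L2/3 IT-like nuclei 16 and 10 against 8 and 10 (-0.45 ± 0.46). Some apparent gains came from very few nuclei. In L6b-like nuclei *Fam129a* had 0 and 0 UMIs in flox/flox and 4 and 19 in Syn-Cre, and all 19 were in 1 nucleus. *Ddr2* there had 0 and 0 against 12 and 0.

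Clusters without a subtype name also held members. In a cluster of neurons led by *Cdc14a* and *Angpt1*, *Fam129a* had 0 and 4 UMIs in flox/flox and 40 and 4 in Syn-Cre, and *Cyb5r2* 0 and 0 against 14 and 3. *Ddr2* was present in a cluster led by *Ano1*, *Zic1* and *Zic4*, with 61 and 0 UMIs in flox/flox and 13 and 13 in Syn-Cre. That cluster held 244 and 13 nuclei in flox/flox and 50 and 63 in Syn-Cre.

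Over the 14 subtypes and 8 genes, 27 of 112 gene-subtype pairs passed the filter on low counts, and 16 of the 27 had a log2 fold change of at least 3, against 0.0633% of all pairs tested. The choice of the genes fixed this count, and a pair that passed only through its Syn-Cre libraries had to differ. The values just inside and just outside that fold were *Ddr2* in Pvalb-like nuclei (3.20) and *Fam129a* in L2/3 IT-like nuclei (2.66).

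The share of nuclei with at least 1 UMI of any of the 8 genes shows how widely the transcripts were spread. In Sst-like nuclei the share was 2.71% and 5.32% in flox/flox and 72.2% and 50% in Syn-Cre. It was 28.3% and 24.1% against 87.2% and 66.0% in Pvalb-like, and 40% and 41.6% against 67.6% and 66.4% in Lamp5-like nuclei. In L4/5 IT-like nuclei it was 5.68% and 6.70% against 23.2% and 18.0%, and in DG-like nuclei 2.82% and 3.04% against 13.8% and 10.1%. In L2/3 IT-like nuclei (8.55% and 9.79% against 9.40% and 10.4%) and in Vip-like nuclei (9.56% and 7.33% against 14.9% and 7.24%) the groups overlapped.

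Free RNA can place UMIs in nuclei that do not express a gene, and depth sets how many nuclei pass. In oligodendrocyte-like nuclei the same share was 1.52% and 0.597% in flox/flox and 4.79% and 4.11% in Syn-Cre, at medians of 2567 to 3264 UMIs against 8822 to 10143.5 in Sst-like nuclei. Nuclei with fewer than 2000 UMIs were then left out and the others thinned to 2000 UMIs. The share became 0% and 2.13% in flox/flox and 28.6% and 21.7% in Syn-Cre Sst-like nuclei. In oligodendrocyte-like nuclei it became 0.539% and 0.447% against 2.14% and 4.12%, with 1669 and 894 nuclei left against 280 and 291. Thinning kept the Sst-like gap, and the 0 of 257 nuclei in flox/flox replicate 1 allows a share of up to 1.17% (3 counts of the total).

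**Figure D2:**
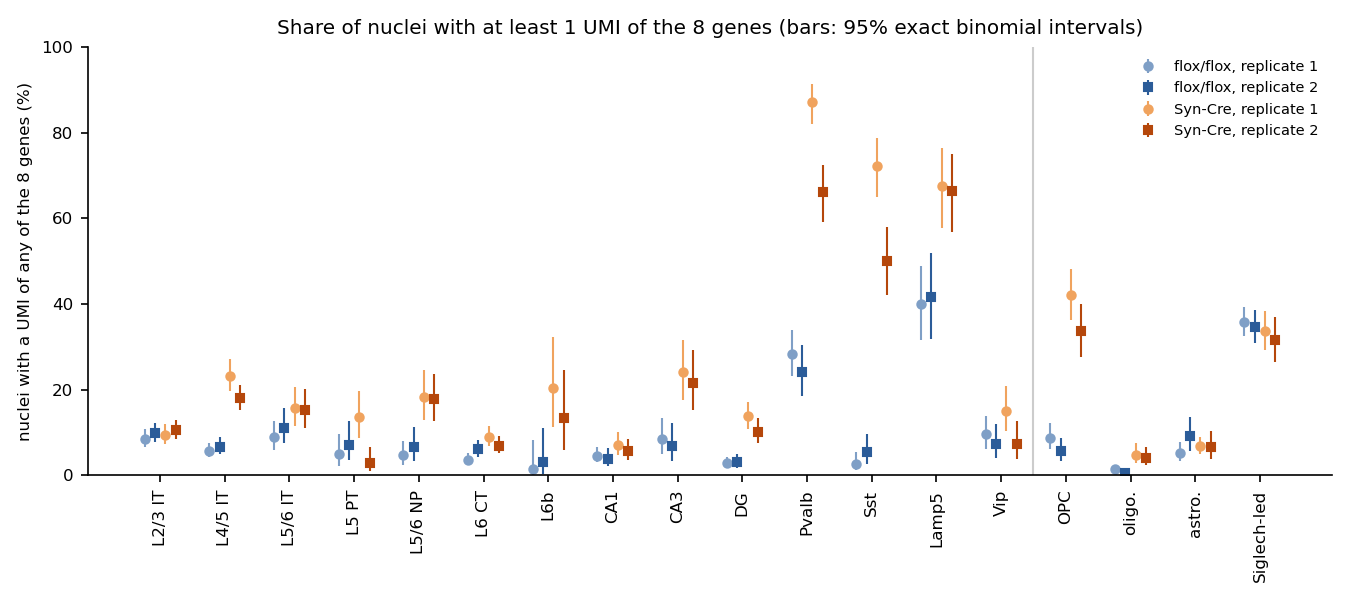
Percent of nuclei with at least 1 UMI of any of the 8 genes, by class and library, with 95% exact binomial intervals (counting error only) and neuron subtypes left of the grey line. Both Syn-Cre libraries stand above both flox/flox libraries in most classes, narrowly in L6 CT-like and CA1-like nuclei. The groups overlap in L2/3 IT-like, Vip-like, L5 PT-like and astrocyte-like nuclei, and Syn-Cre is lower in the Siglech-led cluster.

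Several members could be found in 1 nucleus. Among Syn-Cre Sst-like nuclei, 38.6% and 20.1% held UMIs of at least 2 of the 8 genes, against 0% and 0.532% in flox/flox, and the fullest nucleus held 5. Of the *Cyb5r2*-positive Sst-like nuclei in Syn-Cre replicate 1, 75.0% held another member, against 56.2% of the *Cyb5r2*-negative nuclei. In Pvalb-like nuclei the share was 59.2% and 27.7% in Syn-Cre and 2.80% and 1.85% in flox/flox. *Cyb5r2* and *Ddr2* shared 24 of 176 Sst-like nuclei in Syn-Cre replicate 1, where the product of their own shares gives 16.7, and 10 of 164 in replicate 2, where it gives 4.88. This pair had the largest excess in number of Sst-like nuclei and was picked out for it. Thinned to 4000 UMIs, it was 9 against 6.06 in replicate 1 and 5 against 1.42 in replicate 2. At full depth, some other pairs were above the product in replicate 1, such as *Fam129a* and *Cass4* with 9 against 4.97. In Pvalb-like nuclei *Cyb5r2* and *Cass4* had 12 against 7.05. Others were near or below the product, such as *Cyb5r2* and *Arap3* with 12 against 11.3 and *Fam129a* and *AC142100.1* with 5 against 5.75. In Pvalb-like nuclei *Cyb5r2* and *Fam129a* had 31 against 32.03. Sst-like nuclei of replicate 1 with *Fam129a* were deeper, with a median of 13143 against 8397 UMIs. Thinned to 4000 UMIs, in Pvalb-like nuclei *Cyb5r2* and *Cass4* had 2 against 1.33, and *Cyb5r2* and *Fam129a* 6 against 7.98. *Fam129a* and *Cass4* in Sst-like nuclei were then too rare to be compared.

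In L4/5 IT-like nuclei members were often found in the same nuclei. *Gm38403* was in 26.4% of *Fam129a*-positive and 1.99% of *Fam129a*-negative nuclei of Syn-Cre replicate 1, and in 13.8% and 2.38% in replicate 2. *AC142100.1* was in 19.4% and 7.28% in replicate 1 and in 32.8% and 7.45% in replicate 2. Positive nuclei were deeper, with a median of 12320.5 against 10025 UMIs in replicate 1 and 13059 against 9530 in replicate 2. With nuclei thinned to 4000 UMIs, *Gm38403* was in 19.4% of *Fam129a*-positive and 1.26% of *Fam129a*-negative nuclei of replicate 1. For *AC142100.1* the thinned shares were 8.33% and 5.03% in replicate 1 and 21.4% and 2.63% in replicate 2, so the gap of replicate 1 was much reduced at equal depth.

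L4/5 IT-like nuclei with a *Fam129a* UMI also held more stress-response RNA. The 32 genes of the integrated stress response list, which hold *Atf4*, *Ddit3*, *Trib3*, *Asns* and *Slc7a11*, summed to 1299 CPM in *Fam129a*-positive and 507 CPM in *Fam129a*-negative nuclei of Syn-Cre replicate 1, and to 1145 and 564 CPM in replicate 2. *Derl3*, which encodes Derlin-3 of the ERAD machinery, stood at 34.2 against 6.30 CPM and at 23.5 against 6.15 CPM. *Sel1l* itself stood at 274 against 111 CPM and at 213 against 118 CPM. Both libraries thus had the higher level in the positive nuclei for all 3 measures. With nuclei thinned to 4000 UMIs the list stood at 1444 against 587 CPM in replicate 1 and at 1241 against 570 CPM in replicate 2.

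The list was also compared in Sst-like and Pvalb-like nuclei, by *Fam129a* and by other members, and the difference from L4/5 IT-like nuclei was not tested. With and without *Fam129a*, it stood at 2339 against 2164 CPM and 2069 against 1632 CPM in Sst-like nuclei of replicates 1 and 2. In Pvalb-like nuclei it stood at 2179 against 2092 CPM in replicate 1, and was slightly lower with *Fam129a* in replicate 2 (1205 against 1223 CPM). In Sst-like nuclei the list stood at 2411 CPM in *Cyb5r2*-positive and 2110 CPM in *Cyb5r2*-negative nuclei of replicate 1, and at 2571 against 1570 CPM in replicate 2. In Pvalb-like nuclei it stood at 2144 against 2134 CPM with and without *Ddr2* in replicate 1 and at 1332 against 1119 CPM in replicate 2. Negative Sst-like nuclei of Syn-Cre were thus well above the 567 and 610 CPM of all flox/flox Sst-like nuclei.

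**Figure D3:**
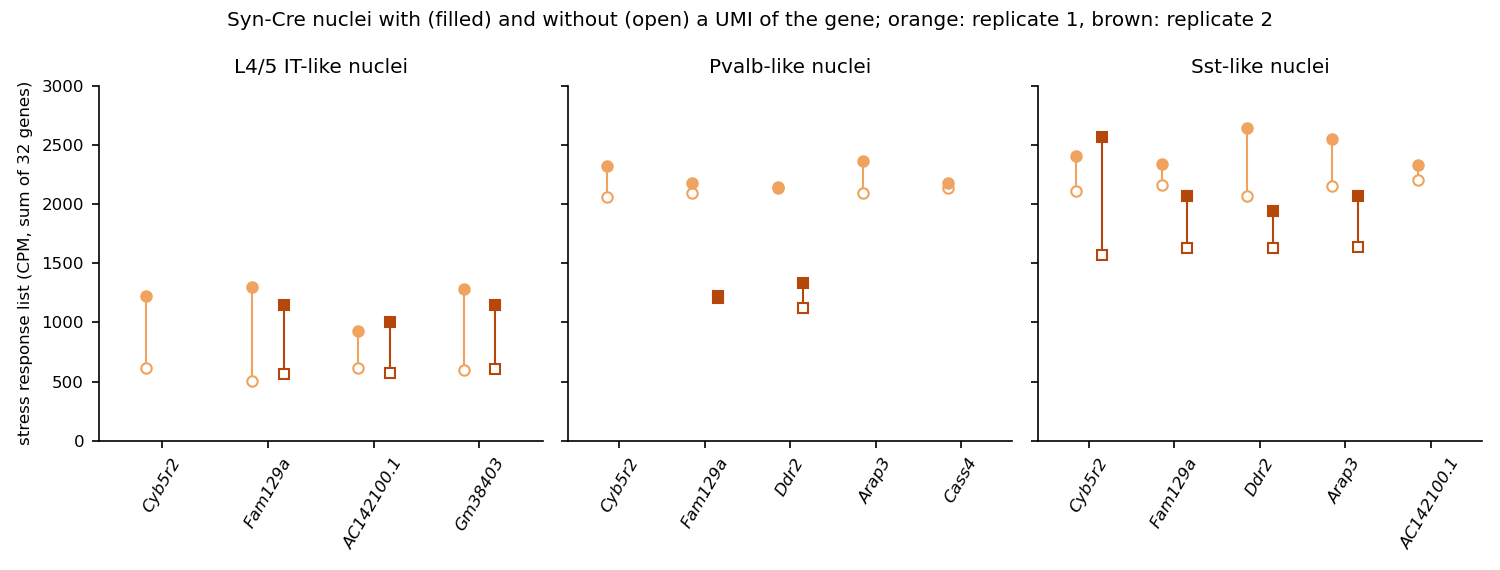
Summed level (CPM) of the 32 stress response genes in Syn-Cre nuclei with (filled) and without (open) a UMI of each gene, where a library held at least 20 nuclei with one (orange, replicate 1; brown, replicate 2). Filled points lie well above open points in L4/5 IT-like nuclei, as for Fam129a with 1299 against 507 CPM, and close to them in Pvalb-like nuclei.

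The stress-response genes were tested in the same subtypes. Integrated stress response genes passed the edgeR test (Benjamini-Hochberg adjusted p under 0.05) as higher in Syn-Cre in 76 of 328 gene-subtype pairs and genes of the ER unfolded protein response and ERAD (31 genes, *Sel1l* among them) in 133 of 412, with 0 lower in each. Over all genes, 1.48% of pairs were called in either direction. Parts of both lists were known to move in these libraries, so they are not independent evidence. Some of the pairs passed the filter on low counts only through Syn-Cre, and such pairs had to differ. The same limit holds for the counts by class below.

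In Sst-like nuclei 28 of 30 tested integrated stress response genes and 29 of 31 ER genes were higher, where 8.16% of all genes were called. In Pvalb-like nuclei the counts were 14 of 30 and 28 of 31 (4.05% of all genes), in DG-like nuclei 12 of 25 and 25 of 30 (3.46%), in L4/5 IT-like nuclei 12 of 28 and 14 of 31 (1.74%) and in Lamp5-like nuclei 5 of 25 and 17 of 30 (1.36%). The other subtypes had fewer calls: L5/6 IT-like nuclei had 3 of 25 and 5 of 30 (0.723%), L2/3 IT-like 1 of 26 and 0 of 31 (0.505%), L6 CT-like 1 of 25 and 4 of 30 (0.409%), L6b-like 0 of 13 and 4 of 25 (0.207%), L5/6 NP-like 0 of 21 and 4 of 30 (0.18%) and CA3-like 0 of 20 and 3 of 30 (0.0328%). In CA1-like, Vip-like and L5 PT-like nuclei the edgeR test called none of either list (0.0%, 0.026% and 0.0397% of all genes).

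The 6 integrated stress response genes with the largest called fold changes were *Cth*, *Slc7a11*, *Trib3*, *Slc7a3*, *Eif4ebp1* and *Chac1*. *Cth*, an enzyme of the transsulfuration pathway, had 2 and 2 UMIs in flox/flox and 93 and 30 in Syn-Cre Pvalb-like nuclei, a log2 fold change of 5.11 ± 0.71. *Slc7a11*, the cystine transporter, had 4 and 0 against 70 and 38 in Lamp5-like nuclei (4.89 ± 0.59), and *Trib3*, a pseudokinase induced by ATF4, had 1 and 1 against 27 and 21 in L4/5 IT-like nuclei (4.78 ± 0.68). All 3 were apart between the groups, and Syn-Cre replicate 1 was above replicate 2 in CPM, as for *Cyb5r2*. These 3 passed the filter on low counts there only through Syn-Cre, so the gap between the groups was favoured by the filter. The translation repressor gene *Eif4ebp1*, the amino acid transporter gene *Slc7a3* and the glutathione-degrading enzyme gene *Chac1* had log2 fold changes of 3.88 (DG), 3.98 (DG) and 3.71 (L4/5 IT).

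Of the ER list, *Derl3* had 0 and 0 UMIs in flox/flox and 199 and 126 in Syn-Cre Sst-like nuclei, and *Fkbp11*, an ER prolyl isomerase gene, had 0 and 1 against 33 and 20. *Sdf2l1*, an ER chaperone cofactor gene, had 3 and 2 against 79 and 55 in Pvalb-like nuclei (log2 fold change 4.92 ± 0.44). *Creb3l2*, a transcription factor gene of the ER membrane, had 18 and 5 against 245 and 179 in DG-like nuclei (4.80 ± 0.27). *Creld2* in Pvalb-like and the chaperone gene *Hspa5* in Sst-like nuclei followed at 3.22 ± 0.37 and 3.15 ± 0.26. In none of these did the groups overlap. *Derl3*, *Fkbp11* and *Sdf2l1* passed the filter on low counts there only through Syn-Cre, so a gene tested there had to differ.

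The members were also compared with all other genes by their pattern. Over 56 sums (14 neuron subtypes in 4 libraries), the 3 genes with the highest Pearson correlation of log2(CPM + 1) were taken from 19184 genes with at least 50 UMIs. These points share libraries, depth and cell types, so the values describe the pattern only. The sums hold both groups, and the members were chosen as higher in Syn-Cre neurons. That choice favoured other genes raised in Syn-Cre neurons as the closest, so their names are no independent support. For *Cyb5r2* they were *Slc7a11* (0.895), *Trib3* (0.891) and *Lars* (0.866), a leucyl-tRNA synthetase gene. For *Fam129a* they were *Slc3a2* (0.862), the heavy chain that pairs with *Slc7a11*, the threonyl-tRNA synthetase gene *Tars* (0.812) and *Ss18l2* (0.799).

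For *Arap3* the closest genes were *Sel1l* (0.845), the protein disulfide isomerase gene *P4hb* (0.811) and the ER chaperone gene *Hyou1* (0.810). For *Ddr2* they were *Taf15* (0.867), *Hspa9* (0.856), a mitochondrial chaperone gene, and *Lama1* (0.853). For *Cass4* they were *Hsd17b1* (0.854), *Entpd2* (0.823) and *Avil* (0.793). For *Gm32312* they were *Ostn* (0.870), *Uts2b* (0.857) and *Gm42678* (0.741). For *AC142100.1* the values were lower, with *Gm32926* (0.701), *Rab18* (0.675) and *1500011B03Rik* (0.666), and for *Gm38403* they were *Soat2* (0.709), *Cdkn1a* (0.694) and *Gm12511* (0.683).

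Nuclei other than neurons were not used in choosing the genes, so the members could be tested there. These nuclei came from the same mice and libraries as the neurons, so this was not a test in other animals. A difference between whole libraries would reach both. *Cyb5r2* and *Ddr2* were higher in oligodendrocyte precursor cell (OPC)-like nuclei of Syn-Cre, and *Cyb5r2* also in oligodendrocyte-like nuclei. *Cyb5r2* passed the filter on low counts in both classes only through its Syn-Cre libraries, so the number of members called supports nothing by itself, while *Ddr2* passed it in every OPC-like library. In the same tests 2.73% of all genes were called in OPC-like, 0.881% in oligodendrocyte-like, 0.354% in astrocyte-like nuclei and 0.0382% in the Siglech-led cluster (higher in Syn-Cre 1.83%, 0.689%, 0.292% and 0.0191%).

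*Cyb5r2* in OPC-like nuclei had 6 and 5 UMIs in flox/flox and 76 and 49 in Syn-Cre (3.85 and 3.89 against 69.7 and 48.8 CPM). Both Syn-Cre libraries were far above both flox/flox libraries. The log2 fold change was 3.91 ± 0.37, and the edgeR quasi-likelihood test gave an adjusted p of 2.17e-07 (n = 2 per group). Its flox/flox counts were under the filter, so it was tested only through Syn-Cre and this p is no support by itself. With no filter on low counts *Cyb5r2* stood at 3.88 ± 0.37 on the log2 scale (edgeR, adjusted p 1.59e-22). That setting called 1487 gene-class pairs in the non-neuronal classes, against 444 with the filter. The fold and its ± value hardly changed, so the smaller p adds no support. Nuclei with a *Cyb5r2* UMI were 1.33% and 1.47% of OPC-like nuclei in flox/flox and 23.4% and 19.1% in Syn-Cre. In astrocyte-like nuclei, of like depth (medians of 3008 to 3203.5 UMIs against 3603 to 3879), they were 0% and 0.455% against 0% and 0.769%.

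*Ddr2* in OPC-like nuclei had 25 and 12 UMIs in flox/flox and 98 and 55 in Syn-Cre (16.1 and 9.35 against 89.9 and 54.8 CPM). The groups were again well apart, with at 2.48 ± 0.30 on the log2 scale (edgeR, adjusted p 1.04e-05). Nuclei with a *Ddr2* UMI were 6.12% and 3.23% in flox/flox and 24.1% and 17.01% in Syn-Cre, against 3.39% and 8.18% and then 5.63% and 5.00% of astrocyte-like nuclei. Leaving out flox/flox replicate 1, the library with Cre UMIs, the log2 fold changes were 3.89 for *Cyb5r2* and 2.94 for *Ddr2*. Only flox/flox replicate 2 was then left in its group, and its *Cyb5r2* counts were under the filter.

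*Cyb5r2* in oligodendrocyte-like nuclei had 13 and 5 UMIs in flox/flox and 15 and 15 in Syn-Cre, from 1847 and 1173 nuclei against 355 and 365. This was 1.95 and 1.47 against 14.2 and 14.1 CPM, with no overlap. Its flox/flox counts did not reach the filter on low counts. With no filter the log2 fold change was 2.91 (edgeR, adjusted p 4.35e-07), and as in OPC-like nuclei that p adds no support. In the main setting the change was 2.97 ± 0.43 (edgeR, adjusted p 0.0170). Without Syn-Cre replicate 2 the adjusted p of the edgeR test was 0.0995, and this call was lost.

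In OPC-like nuclei the integrated stress response list summed to 602 and 741 CPM in flox/flox and 2501 and 1769 CPM in Syn-Cre, and 20 of 25 tested genes were higher. Of the ER list 17 of 30 were higher. In oligodendrocyte-like nuclei 7 of 19 and 6 of 29 were higher, and in astrocyte-like nuclei 0 of 20 and 0 of 27. Member calls and stress-list calls both fell in OPC-like and oligodendrocyte-like nuclei. In oligodendrocyte-like nuclei the only member called was *Cyb5r2*, which was tested only through Syn-Cre. In astrocyte-like nuclei *Cyb5r2* had too few UMIs to be tested, so this match supports nothing by itself.

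Markers of neurons summed to 609 and 598 CPM in flox/flox and 497 and 576 CPM in Syn-Cre OPC-like nuclei, so they were not higher in Syn-Cre, and all 6 were detected in flox/flox. Markers of vascular leptomeningeal cells (VLMC), which hold *Ddr2*, summed to 3.10 and 3.89 against 9.79 and 0.991 CPM. The Cre transcript had 27 and 0 UMIs in flox/flox and 19 and 12 in Syn-Cre OPC-like nuclei (16.7 and 0 against 16.9 and 11.9 CPM), but 2 and 0 against 0 and 0 in oligodendrocyte-like nuclei and 2 and 0 against 2 and 0 in astrocyte-like nuclei. In flox/flox replicate 1 the level of Cre in OPC-like nuclei was thus that of Syn-Cre, and *Cyb5r2* stayed at 3.85 CPM. The part of Cre in the OPC-like result was not tested.

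**Figure D4:**
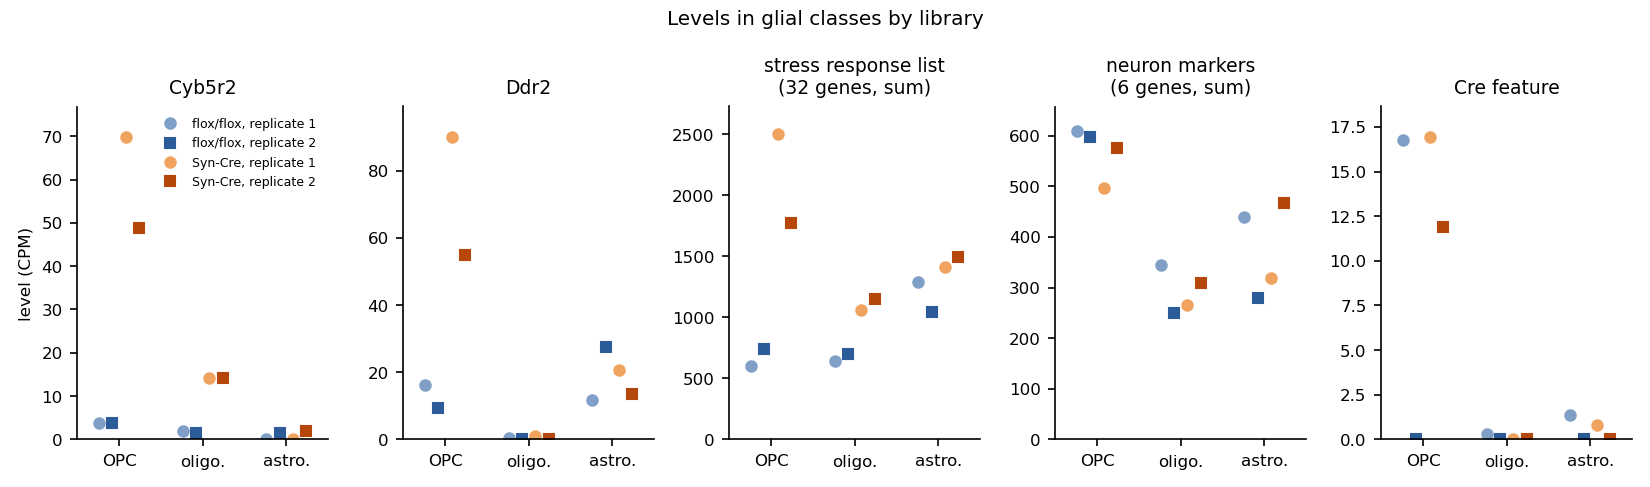
Levels (CPM) of Cyb5r2, Ddr2, the summed stress response list, 6 neuron markers and the Cre transcript in OPC-like, oligodendrocyte-like and astrocyte-like nuclei, with 1 point per library. In OPC-like nuclei Cyb5r2, Ddr2 and the stress list are higher in both Syn-Cre libraries, neuron markers are not, and Cre is present in all libraries but flox/flox replicate 2.

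Within OPC-like nuclei *Cyb5r2* and *Ddr2* shared about as many nuclei as the product of their shares. Both were detected in 16 of 278 Syn-Cre nuclei of replicate 1, where the product of their shares gives 15.7, and in 7 of 241 of replicate 2, where it gives 7.83. The stress list stood at 2408 CPM in nuclei with and 2532 CPM in nuclei without *Cyb5r2* in replicate 1, and at 1989 and 1714 CPM in replicate 2. The other members were at or near 0 in OPC-like nuclei: *Fam129a*, *Gm32312* and *Gm38403* had 0 UMIs in every library, *Arap3* 0 and 0 against 2 and 0, *Cass4* 1 and 0 against 1 and 0, and *AC142100.1* 5 and 3 against 1 and 1.

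Elsewhere outside neurons, members were present in both groups and not called. In the Siglech-led cluster *Fam129a* had 83 and 70 UMIs in flox/flox and 31 and 28 in Syn-Cre (log2 fold change -0.59 ± 0.23, edgeR adjusted p 0.554). *Arap3* had 223 and 155 against 113 and 79 (-0.19 ± 0.16, edgeR adjusted p 0.792), and *Cass4* 103 and 80 against 40 and 26 (-0.69 ± 0.21, edgeR adjusted p 0.462). All 3 log2 fold changes were negative, and none passed the test. In Pvalb-like nuclei, where *Arap3* and *Cass4* were higher in Syn-Cre, the 6 microglial markers summed to 55.3 and 79.5 CPM in flox/flox and 83.6 and 79.9 CPM in Syn-Cre, and their part in those values was not tested.

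*Ddr2* in astrocyte-like nuclei had 17 and 20 UMIs in flox/flox and 49 and 14 in Syn-Cre (log2 fold change -0.01 ± 0.46, edgeR adjusted p 0.999), with overlapping groups. In nuclei like VLMC or fibroblasts, a class too small to test, it had 67 and 8 UMIs in 70 and 19 flox/flox nuclei and 89 and 45 in 120 and 53 Syn-Cre nuclei. VLMC markers in Pvalb-like nuclei had 6 and 2 UMIs in flox/flox and 26 and 1 in Syn-Cre, and their part in the *Ddr2* values there was not tested. *Arap3* had 23 and 3 UMIs in endothelial-like nuclei of flox/flox and 20 and 8 in Syn-Cre. Ranked by their mean level in Syn-Cre, the 4 highest tested classes for *Cyb5r2* were OPC-like (69.7 and 48.8 CPM), Sst-like (53.0 and 16.1), Pvalb-like (35.7 and 4.52) and Lamp5-like nuclei (22.1 and 7.05), and the ranges of neighbours in this order overlapped.

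Close relatives of the members were tested in neurons, since the choice did not use them. Of 12 paralogs, *Cyb5r1* alone was called, in 5 of the 106 gene-subtype pairs tested, and all 5 were higher in Syn-Cre. Over all genes 1.48% of pairs were called. *Cyb5r1* encodes another NADH-cytochrome b5 reductase. In Sst-like nuclei it had 12 and 9 UMIs in flox/flox and 106 and 65 in Syn-Cre, or 3.38 ± 0.31 on the log2 scale (adjusted p 1.11e-05 by edgeR).

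In L4/5 IT-like nuclei *Cyb5r1* had 7 and 8 UMIs against 73 and 58 (log2 fold change 3.48 ± 0.41), and in Pvalb-like nuclei 16 and 9 against 117 and 55 (3.03 ± 0.40). In Lamp5-like nuclei it had 16 and 10 against 54 and 38 (2.03 ± 0.34) and in DG-like nuclei 26 and 12 against 53 and 23 (1.60 ± 0.39). The 5 edgeR adjusted p values were at most 0.0396, and no groups overlapped in CPM. In Sst-like and L4/5 IT-like nuclei *Cyb5r1* also passed the filter on low counts only through Syn-Cre. In Pvalb-like nuclei flox/flox replicate 2 was under that filter, so *Cyb5r1* could not have passed it there without Syn-Cre. Outside neurons, the paralog *Arap2* was higher in Syn-Cre oligodendrocyte-like nuclei, with 302 and 370 CPM in flox/flox and 757 and 739 CPM in Syn-Cre (log2 fold change 1.16 ± 0.17, edgeR adjusted p 0.017).

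Genes within 100 kb of a member were called in 4 of 232 gene-subtype pairs, against 1.48% of all pairs. *Ostn*, which encodes the secreted peptide osteocrin and whose body holds *Gm32312*, had 6 and 9 UMIs in flox/flox and 122 and 69 in Syn-Cre Pvalb-like nuclei, a log2 fold change of 3.89 ± 0.41. *Uts2b*, which encodes the peptide urotensin 2B and lies 26681 bases from *Gm32312*, had 2 and 4 against 20 and 16 (2.76 ± 0.57, edgeR adjusted p 0.0169). For both genes the Syn-Cre libraries were well above flox/flox, but both passed the filter on low counts only through Syn-Cre, so a gene tested there had to differ. *Ccdc50*, further along at 62228 bases, was not called (log2 fold change -0.11 ± 0.17, edgeR adjusted p 0.816).

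*Gm32312* and *Ostn* were found in the same nuclei. Of 15 Syn-Cre Pvalb-like nuclei with a *Gm32312* UMI in replicate 1, 14 held *Ostn*, against 30.6% of those without, and in replicate 2 it was 8 of 11 against 17.9%. Since *Gm32312* lies within *Ostn*, reads of the 2 genes cannot be told apart if strand was not used, and their being together is no separate finding. *Zfp516*, a zinc finger gene near *AC142100.1*, was higher in Sst-like nuclei (log2 fold change 1.33 ± 0.23), and *Uap1*, an enzyme of UDP-N-acetylglucosamine synthesis near *Ddr2*, in DG-like nuclei (1.18 ± 0.23). Of the other overlapping genes, *Ppfibp2* was not called in OPC-like nuclei (log2 fold change 0.71 ± 0.37, edgeR adjusted p 0.465), where it had 16 and 21 UMIs in flox/flox and 18 and 27 in Syn-Cre while *Cyb5r2* rose.

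**Figure D5:**
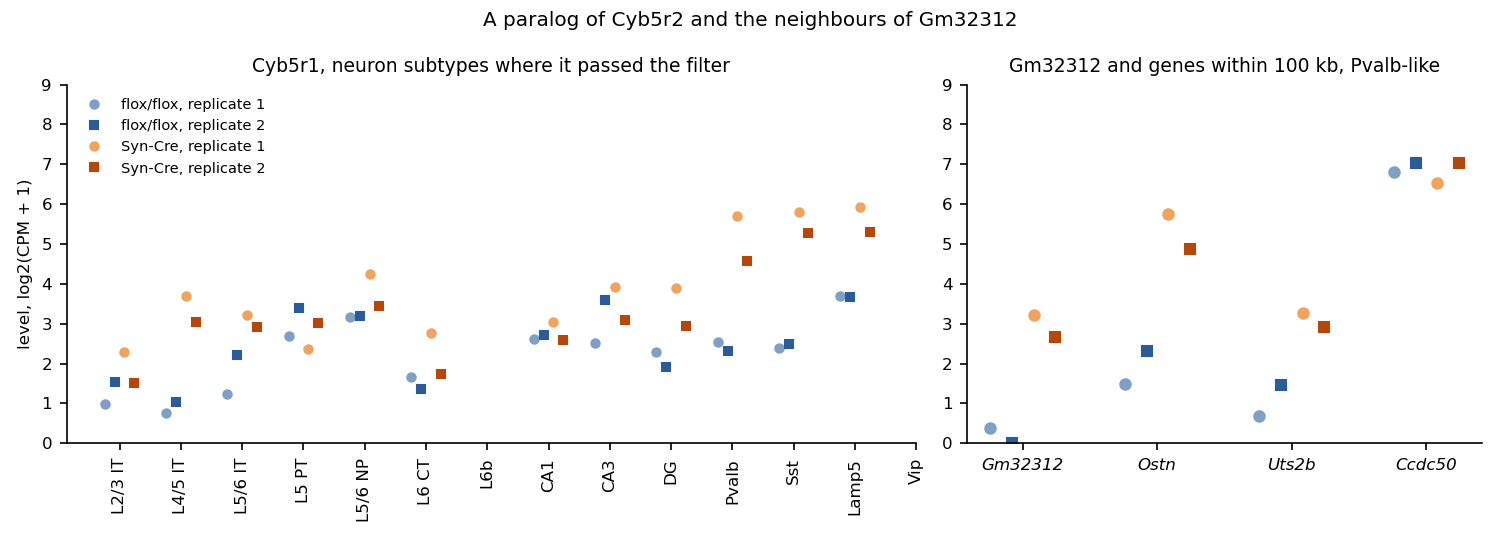
Levels, as log2(CPM + 1), of the paralog Cyb5r1 in the neuron subtypes where it passed the filter (left), and of Gm32312, Ostn, Uts2b and Ccdc50 in Pvalb-like nuclei (right), with 1 point per library. Cyb5r1 is higher in both Syn-Cre libraries in Sst-like, Pvalb-like, Lamp5-like, L4/5 IT-like and DG-like nuclei, and Gm32312, Ostn and Uts2b are higher there in Pvalb-like nuclei while the Ccdc50 points overlap.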

How the data were processed

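Single-nucleus RNA-seq libraries from the cortex and hippocampus of 2 Sel1L flox/flox and 2 Sel1L Syn-Cre mice were analysed, with groups taken from the labels. The deposited files hold UMI counts per gene and nucleus, which the authors made with Cell Ranger 6.1.0 on GRCm38 by the processing notes, and the settings for strand and introns are not given in the sources used here. Total counts ran from 74082610 to 122870443 UMIs per library, and low counts limit most of the values to a few UMIs.

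Nuclei with more than 600 genes and under 5% mitochondrial UMIs were kept, and 426 to 1246 predicted doublets per library were removed (Scrublet in scanpy 1.11.5). Nuclei were clustered after integration (Seurat 5.3.0) and named from marker lists. Counts were summed per library and class and, for genes kept by filterByExpr, tested with edgeR 4.0.16 (quasi-likelihood test, TMM scaling, Benjamini-Hochberg adjustment over all genes of a class, threshold 0.05), with no replicate block. Members and their CPM are TMM-scaled within a class, and those of gene lists and of subsets of nuclei use all UMIs of the class.

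The members and the gene lists were chosen with earlier results of these data known. Named genes were the members, the called paralogs and neighbours within 100 kb, the largest stress-gene changes and the 3 genes of most like pattern per member. The clusters without a subtype name, Ccdc50 and the pairs of genes in the same nucleus were picked out after their values were seen. Alternatives were DESeq2 1.42.0, other filters, each library left out, a replicate block, clustering without integration, doublets kept and nuclei thinned to 2000 or 4000 UMIs. Nuclei below the target depth were left out of the thinned sets.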

Additional observations from a re-analysis of the deposited data

How the results depend on the processing

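No called value changed sign. A count was taken as unchanged when near the main one, as with 316 gene-class pairs called in non-neuronal classes by DESeq2 against 444. Of the values of the main results under alternatives, 83 were unchanged in this sense or kept their call, 13 moved and 1 lost its call. A further 44 values were of members not called, and stayed so. Among these, *Ddr2* in astrocyte-like nuclei changed sign, from -0.63 to 0.60 on the log2 scale with a library left out and to 0.06 with at least 10 counts in every library. Genes called in the 4 non-neuronal classes numbered 444, against 1487 with no filter on low counts, and 381 to 1564 with a library left out, the highest without flox/flox replicate 2. Of the 3 members called there, 1 was left with at least 10 counts in every library, which removed *Cyb5r2* in OPC-like and oligodendrocyte-like nuclei from the test, and 2 to 3 with a library left out. *Cyb5r2* in oligodendrocyte-like nuclei ranged from 2.83 to 3.21 on the log2 scale, and without Syn-Cre replicate 2 it was 2.98 with an edgeR adjusted p of 0.0995. It was not tested without integration. Called paralog pairs numbered 5, against 3 with DESeq2, 2 with at least 10 counts in every library, and 3 (without Syn-Cre replicate 1) to 9 (without flox/flox replicate 1) with a library left out. Called neighbour pairs numbered 4, against 2 with DESeq2 and 3 to 11 with a library left out, the highest without flox/flox replicate 2. The causes were not tested. Stress pairs numbered 209, and 143 to 263 over the alternatives. The mean share of Syn-Cre Sst-like nuclei with a member was 61.1%, and 25.2% and 42.1% after thinning to 2000 and 4000 UMIs. The share of *Cyb5r2*-positive Sst-like nuclei with another member, 75.0%, was 56.8% after thinning to 4000 UMIs, so UMI depth limits how many nuclei are seen with a member.

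Replicate numbers did not pair the samples by any label, and same-numbered libraries correlated at 0.0472 to 0.246 in their deviations. By *Xist* and *Ddx3y*, replicate 1 was male and replicate 2 female in both groups. A replicate block was therefore also a block by sex, which the main fit left out. With a replicate block, 1244 gene-class pairs were called in non-neuronal classes, 3 of them of members. In neurons 6 paralog pairs, 6 neighbour pairs and 257 stress pairs were called. A library left alone in its group was assumed to vary like the other group.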
